A study of Homo sapiens with 26 samples.

Results

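The transforming growth factor beta (TGF-beta) pathway was followed through 9 genes, chosen by symbol: the ligands TGFB1 and TGFB2, the receptors TGFBR1 and TGFBR2, the signal transducers SMAD2 and SMAD3, the inhibitors SMAD7 and SKIL, and the target TGFBI. All 9 were found among the 41078 genes of the deposited table. The table holds 26 mRNA libraries of human single cell-derived cell lines (SCDCLs), 12 labelled BxPC3 and 14 labelled Panc1, which are established lines of pancreatic ductal adenocarcinoma (PDAC) described by the study as classical and basal-like. Every SCDCL was grown from 1 cell by limited dilution and gave 1 library, so clone and library cannot be told apart, and every p-value covers only the spread between these libraries. The labels list gemcitabine as the treatment of all 26, but the methods describe RNA collected from the SCDCLs as they reached 80% confluency, with gemcitabine given only in separate viability assays. No genetic change, drug exposure or response was assigned to a library here beyond its labelled line, and libraries are numbered as in the labels.

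TGF-beta ligands are secreted in a latent form held by binding proteins, and integrins and other activators release them. The free ligand brings the type II receptor TGFBR2 together with the type I receptor TGFBR1, which phosphorylates SMAD2 and SMAD3. These join SMAD4 and enter the nucleus, where the complex turns genes on or off, among them those of its own inhibitors. In the pancreas the pathway restrains growth of epithelial cells and also drives epithelial-mesenchymal transition, and SMAD4 is often lost in PDAC.

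The labels were first checked against SMAD4, the shared partner of SMAD2 and SMAD3, a gene that BxPC3 is known to have lost and Panc-1 to have kept. SMAD4 (chromosome 18, 51028528 to 51085045, GRCh38) was at 0.044 TPM (transcript abundance scaled to the same total in each library) or less in 12 libraries and at 28.1 to 52.2 TPM in the other 14. The 12 libraries without SMAD4 comprised 5 labelled BxPC3 and 7 labelled Panc1, and the 14 with SMAD4 comprised 7 of each. The label and the gene therefore went against each other in 14 libraries, and a line is named below only as a label. Members are described across these SMAD4 classes with no test, because a measured gene made the classes and most properties of the 2 parental lines would follow them. The epithelial cadherin CDH1 was at 90.8 to 198 TPM without SMAD4 and at 0.34 to 7.74 TPM with it, and the mesenchymal filament gene VIM was at 1.42 to 73.2 TPM against 3047 to 4526 TPM. The classes thus also differed in these markers of cell state. Their sizes, 12 and 14, equal the numbers of libraries labelled BxPC3 and Panc1. Whether the classes are the 2 parental lines was not tested. Parental line, cell state and SMAD4 cannot be told apart here. Of 5 epithelial markers 2, CDH1 and EPCAM, were higher without SMAD4 in every library. The keratin genes KRT8 and KRT18 had higher medians with SMAD4, 2053 against 461 TPM and 1598 against 521 TPM, with 1 library of each class inside the range of the other, and KRT19 overlapped. The 5 epithelial markers summed to 2255 to 4960 TPM without SMAD4 and 2026 to 8412 TPM with it. Of 3 mesenchymal state markers 2 were higher with SMAD4 in every library, with sums of 4.05 to 80.0 TPM against 3107 to 4563 TPM. The 6 markers of fibroblasts, leukocytes and endothelium summed to 3.30 to 17.4 TPM without SMAD4 and 1.29 to 8.83 TPM with it, and LUM, PTPRC and CD3E stayed under 1 TPM in every library. Only the endothelial cadherin CDH5 did not overlap among these 6, at 1.04 to 13.6 TPM without SMAD4 and at most 0.043 TPM with it, and its part in the results below was not tested. Library totals were 27144920 to 34945608 estimated counts without SMAD4 and 27035724 to 32601392 with it.

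In 3 of the 9 members the classes did not overlap: SMAD2 and SMAD7 were higher in every library with SMAD4, and TGFB1 was higher in every library without it. Among the 14763 genes with a mean of at least 1 TPM, 15.8% were higher in every library with SMAD4, 14.5% were higher in every library without it, and 30.3% did one or the other. A share of 3 in 9 is near that background, so the count itself says nothing particular about the pathway. The same 3 members did not overlap with CPM, with DESeq2 size factors, with TMM-scaled TPM or with read counts scaled to the library total alone and not by transcript length. In bulk RNA, fewer cells expressing a gene and less RNA per cell cannot be told apart.

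**Figure D1:**
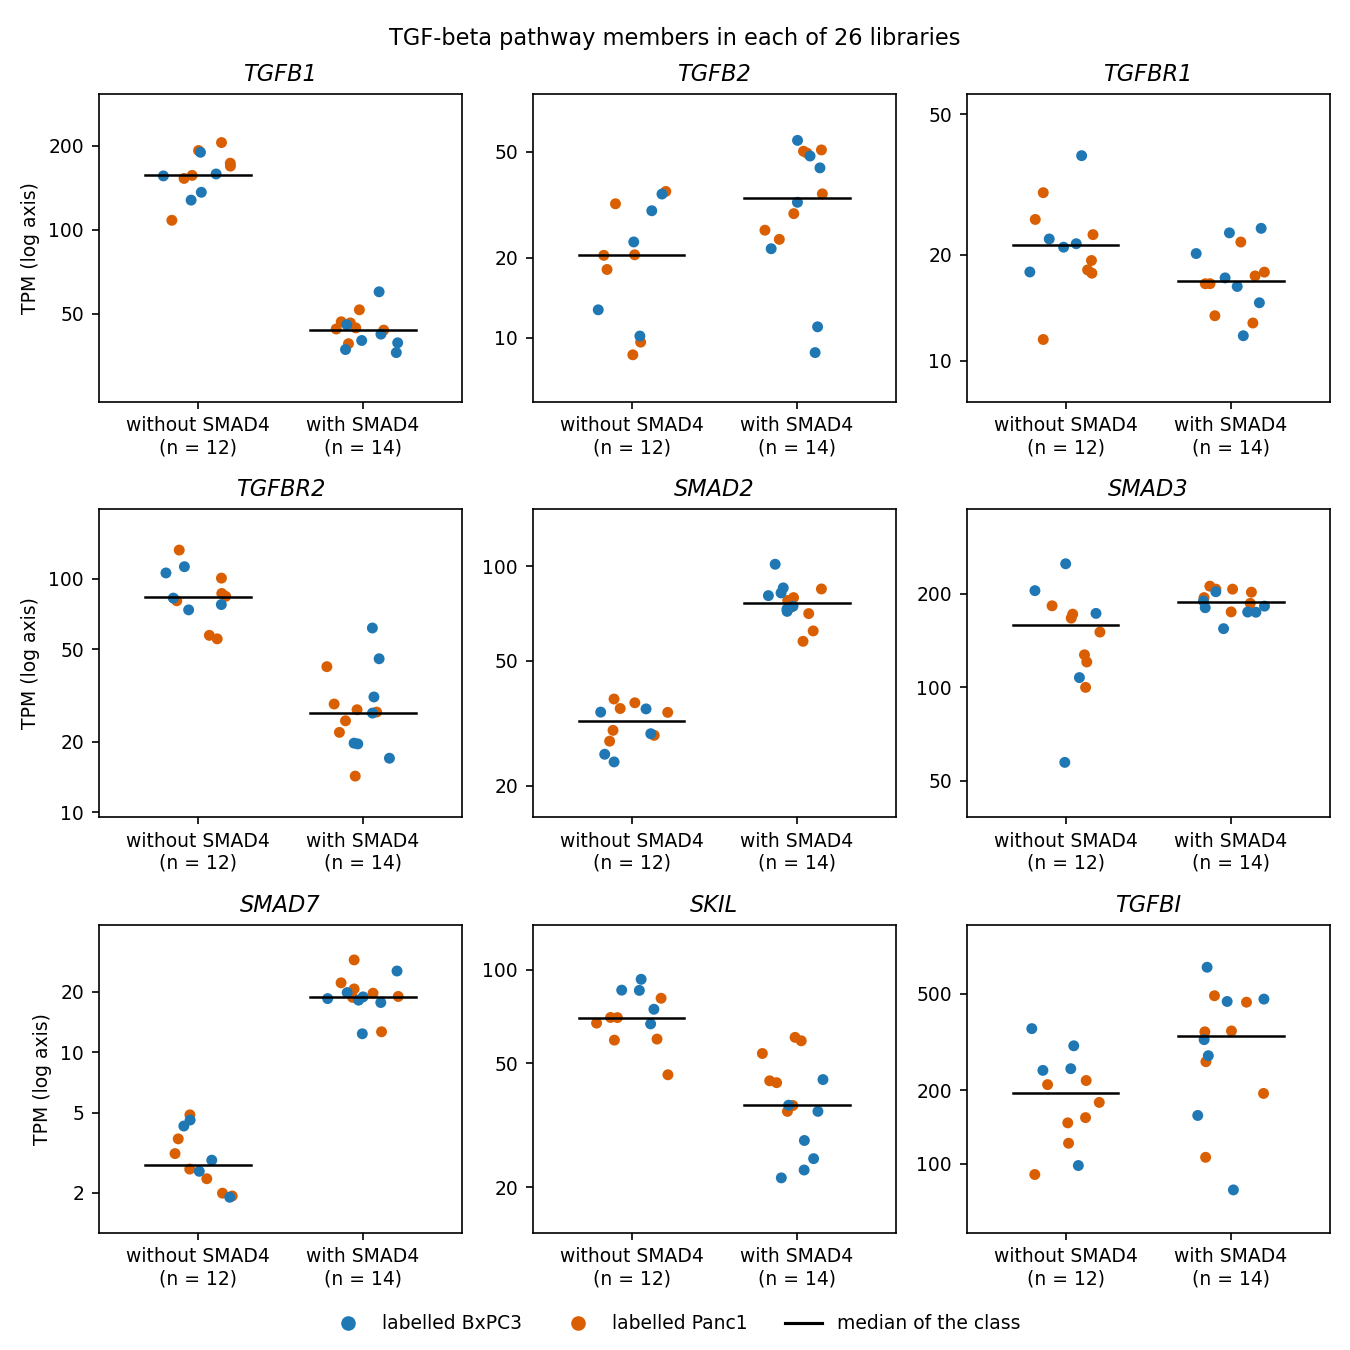
TPM (log axis) of the 9 members in each of 26 libraries, split by SMAD4 class, with 1 point a library coloured by its labelled line and a line at the class median. SMAD2 and SMAD7 sit higher in all 14 libraries with SMAD4, TGFB1 sits higher in all 12 without it, and blue and orange points are mixed in both classes.

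Among the ligands, the libraries without SMAD4 had more TGFB1 and, at the median, less TGFB2. TGFB1 (chromosome 19, 41301587 to 41353922, minus strand), the ligand made by most cell types, ranged from 108 to 205 TPM without SMAD4, with a median of 158 TPM. With SMAD4 it ranged from 36.2 to 59.9 TPM, with a median of 43.8 TPM. The medians differed 3.59-fold, and the lowest library without SMAD4 was 1.81 times the highest library with it. An exon of HNRNPUL1, a gene of an RNA-binding protein on the opposite strand, overlaps TGFB1 in GENCODE. HNRNPUL1 was likewise higher in every library without SMAD4, at 167 to 372 TPM without SMAD4 and 110 to 161 TPM with it. Whether strand was used in the assignment of reads is not given in the sources used here, and the part of such reads in the TGFB1 value was not tested.

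TGFB2 (chromosome 1, 218345336 to 218444619, plus strand) encodes a second ligand, which binds TGFBR2 poorly without the coreceptor TGFBR3. Its lowest, median and highest values were 8.64, 20.5 and 35.5 TPM without SMAD4 and 8.80, 33.5 and 55.2 TPM with it. The classes overlapped, with 8 of the 14 libraries with SMAD4 inside the range of the others. The balance of both ligands differed more than TGFB2 alone: TGFB1 was 4.25 to 21.3 times TGFB2 without SMAD4 (median 7.97) and 0.75 to 5.44 times with it (median 1.32). Libraries 18 and 23, both labelled BxPC3, were the only 2 with SMAD4 that reached the lowest ratio of the class without it. They also had the least TGFB2 of their class, at 8.80 and 11 TPM, whereas the other 12 libraries with SMAD4 were at 21.6 to 55.2 TPM.

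The receptors differed mainly in TGFBR2. TGFBR2 (chromosome 3, 30606601 to 30694142), the type II receptor that binds the ligand first, was at 55.3 to 133 TPM without SMAD4 (median 83.4) and at 14.3 to 61.6 TPM with it (median 26.7), a 3.12-fold difference of medians. Only library 23, at 61.6 TPM, lay inside the range of the class without SMAD4, and without that library TGFBR2 too was higher in every library without SMAD4. TGFBR1 (chromosome 9, 99104038 to 99154192), the type I receptor kinase, was at 11.5, 21.23 and 38.1 TPM (lowest, median, highest) without SMAD4 and at 11.8, 16.9 and 23.7 TPM with it. All 14 libraries with SMAD4 lay inside the TGFBR1 range of the other class. Within a library, TGFBR2 was 2.87 to 5.28 times TGFBR1 without SMAD4 and 0.86 to 2.64 times with it, and these ratios did not overlap.

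Of the receptor-activated SMADs, SMAD2 differed between the classes and SMAD3 overlapped. SMAD2 (chromosome 18, 47808957 to 47931146) was at 23.8, 32.1 and 37.8 TPM without SMAD4 and at 57.7, 76.2 and 102 TPM with it, a 2.37-fold difference of medians. SMAD3 (chromosome 15, 67063763 to 67195173), which unlike the main form of SMAD2 binds DNA directly, was at 57.3, 159 and 249 TPM without SMAD4 and at 154, 188 and 211 TPM with it. The SMAD3 medians differed 1.18-fold, and what set the classes apart was spread: the highest library was 4.35 times the lowest without SMAD4 and 1.37 times with it. Library 26 set the lowest value, and without it the highest was 2.50 times the lowest in that class. SMAD3 exceeded SMAD2 in every library, by 2.28 to 8.51 times without SMAD4 and by 1.72 to 3.58 times with it.

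The estimated length of the SMAD3 transcripts also differed. The effective length of a gene is the mean length of its transcripts weighted by their abundance, so it moves when the mix of short and long transcripts moves. For SMAD3 it was 3511 to 4346 bases in 11 of the 12 libraries without SMAD4 and 4821 to 5428 bases in the 14 with SMAD4. Library 26 was the exception, with 5042 bases and the least SMAD3 of all, 57.3 TPM. It was also lowest in reads scaled to the library total alone (RPM), at 219 RPM, against 274 to 603 RPM in the other 11 and 572 to 778 RPM with SMAD4. The transcripts themselves were not analysed here. Across the 12 libraries without SMAD4, longer SMAD3 transcripts went with less SMAD3 (Pearson r = -0.84, permutation p = 0.00199, adjusted p = 0.00796 over 4 correlations, and Spearman rho = -0.64, permutation p = 0.0275, adjusted p = 0.0594). TPM divides reads by this length, which by itself lowers the level of a longer transcript, but RPM gave r = -0.74 (permutation p = 0.00804, adjusted p = 0.0161, and Spearman rho = -0.64, permutation p = 0.0297, adjusted p = 0.0594). Without library 26 alone, r was -0.60 (permutation p = 0.0490) for TPM and -0.44 (permutation p = 0.172) for RPM. Without the 2 libraries farthest in length, library 26 among them, r was -0.57 (permutation p = 0.0828) for TPM and -0.47 (permutation p = 0.173) for RPM. The sign held, but the relation rested in part on those libraries. With SMAD4, r was 0.31 for TPM (permutation p = 0.286, adjusted p = 0.286) and 0.64 for RPM (permutation p = 0.0140, adjusted p = 0.0187). By rank, rho was 0.34 for TPM (permutation p = 0.235, adjusted p = 0.235) and 0.55 for RPM (permutation p = 0.0451, adjusted p = 0.0602). The r for RPM fell to 0.31 without the 2 farthest libraries (permutation p = 0.328). RPM is not divided by length, which by itself raises the value of a longer transcript. This relation was examined after its values had been seen.

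**Figure D2:**
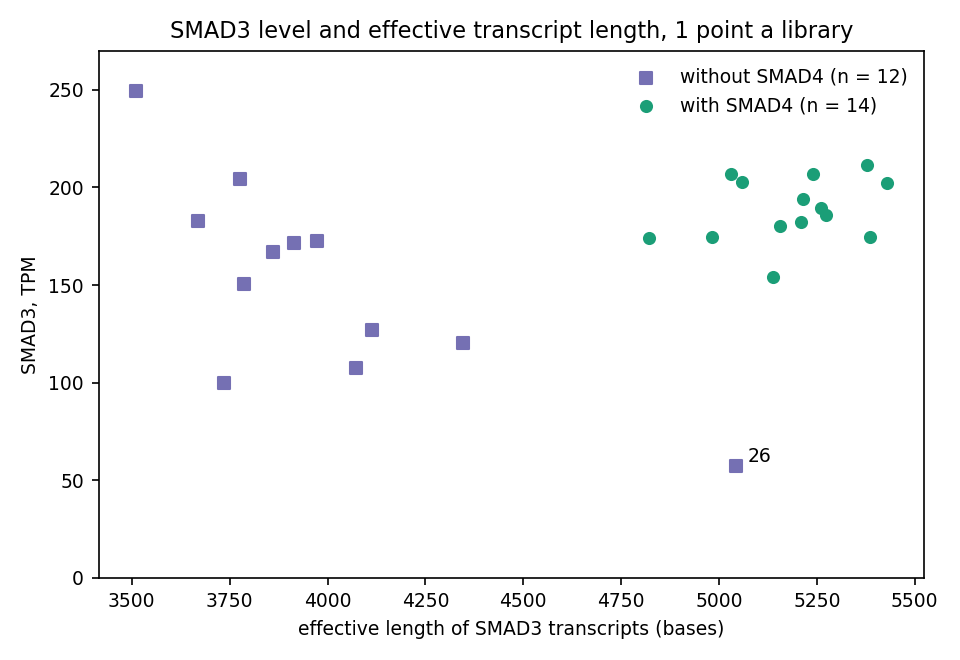
SMAD3 level (TPM) against the effective length of its transcripts (bases), 1 point a library. In all, 11 libraries without SMAD4 lie at 3511 to 4346 bases, library 26 lies at 5042 bases and 57.3 TPM, and the 14 with SMAD4 lie at 4821 to 5428 bases.

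The 2 inhibitors differed in opposite directions. SMAD7 (chromosome 18, 48919853 to 48950965, minus strand), which binds the activated type I receptor and is itself induced by TGF-beta, had the largest ratio of the 9 members. It was at 1.90, 2.76 and 4.88 TPM without SMAD4 and at 12.3, 18.9 and 28.7 TPM with it, a 6.83-fold difference of medians. The lowest library with SMAD4 was 2.53 times the highest without it. The depth behind these values was 148 to 432 estimated counts without SMAD4 and 906 to 2040 with it. SKIL (chromosome 3, 170357342 to 170396835), whose product SnoN represses SMAD targets, was at 45.9, 70.1 and 93.0 TPM without SMAD4 and at 21.4, 36.6 and 60.6 TPM with it, so that the medians differed 1.92-fold and the classes overlapped in 3 libraries of each. SKIL exceeded SMAD7 by 16.6 to 35.2 times in the libraries without SMAD4 and by 1.18 to 3.23 times in those with it. SMAD3 exceeded SMAD7 by 30.2 to 73.1 times and by 7.189 to 13.8 times. Neither ratio overlapped between the classes.

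SMAD3 and SMAD4 contact DNA at the box CAGAC, read as GTCTG on the other strand, and the palindrome GTCTAGAC is a known binding element. The 250 bases upstream of the annotated start sites of the members (24 RefSeq windows, GRCh38.p14) were searched for these letters on both strands. The palindrome was in 0 of the 24 windows and in 0.182% of all 35116 windows. Sequence outside these windows was not searched, so a member may hold it elsewhere. The box was in 10 of the 24 windows, in at least 1 window of TGFB2, TGFBR1, SMAD3, SMAD7 and SKIL, and in 38% of all windows, so short a word being common. The stretch of the SMAD7 promoter with its 2 boxes is shown because SMAD7 had the largest ratio, and a stretch of the TGFB2 promoter is shown beside it as that of a member with a box whose levels overlapped. SMAD7 is read on the minus strand, chr18:48951076-48951195, from 230 to 111 bases upstream of the start site. TGFB2 is read on the plus strand, chr1:218345246-218345325, from 90 to 11 bases upstream, a stretch that is also transcribed into the antisense RNA TGFB2-AS1. Capitals mark the boxes.
SMAD7: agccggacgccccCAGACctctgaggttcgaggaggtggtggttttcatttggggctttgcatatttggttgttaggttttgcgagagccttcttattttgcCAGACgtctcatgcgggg
TGFB2: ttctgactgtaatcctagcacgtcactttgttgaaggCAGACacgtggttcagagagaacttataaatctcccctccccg
A box in such a window is a match of letters and not a measured binding site, and it was present both in a member that did not overlap and in one that did.

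TGFBI (chromosome 5, 136028988 to 136063818), a secreted matrix protein named for its induction by TGF-beta, was the member with the highest median in both classes. Its values were 90.1, 195 and 359 TPM without SMAD4 and 77.9, 336 and 643 TPM with it, and 8 of 14 libraries with SMAD4 lay inside the other range. The order of medians without SMAD4 was TGFBI, SMAD3, TGFB1, TGFBR2, SKIL, SMAD2, TGFBR1, TGFB2 and SMAD7. The ranges of neighbours in that order were apart only at the steps from SKIL to SMAD2 and from TGFB2 to SMAD7. Within each library TGFB1 also exceeded TGFBR2 in 12 of 12, whereas TGFBR1 exceeded TGFB2 in 6 of 12. With SMAD4 the order was TGFBI, SMAD3, SMAD2, TGFB1, SKIL, TGFB2, TGFBR2, SMAD7 and TGFBR1, and only SMAD3 and SMAD2 had ranges apart, although SMAD2 exceeded TGFB1 in 14 of 14 libraries. SMAD7 thus stood last without SMAD4 and above TGFBR1 in 8 of 14 libraries with it.

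Clones of 1 class differed from each other far beyond the error of quantification. The SD of log2(TPM + 1) over libraries was 3.89 to 61.5 times the SD over the resampled estimates of 1 library without SMAD4, and 5.49 to 66.0 times with it. The second SD was taken on log2 of the resampled counts with nothing added, so the 2 scales differ. The added 1 shrinks the first SD for a low gene such as SMAD7, which gave the 3.89. In each class, 6 of the 9 members had an SD above the median SD of all genes, which was 0.29 without SMAD4 and 0.28 with it. TGFB2 (SD 0.70 without SMAD4 and 0.79 with it) and TGFBI (SD 0.62 and 0.89) varied most, and 91.7% to 96.3% of genes had a smaller SD than either. SMAD2 was steady in both classes (SD 0.21 and 0.20), as was TGFB1 (SD 0.26 and 0.19). SMAD3 had an SD of 0.56 without SMAD4 (0.40 when library 26 was left out) and 0.13 with it, and SKIL had 0.28 and 0.47. Since each SCDCL has 1 library, this spread holds culture and library preparation as well as clone.

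**Figure D3:**
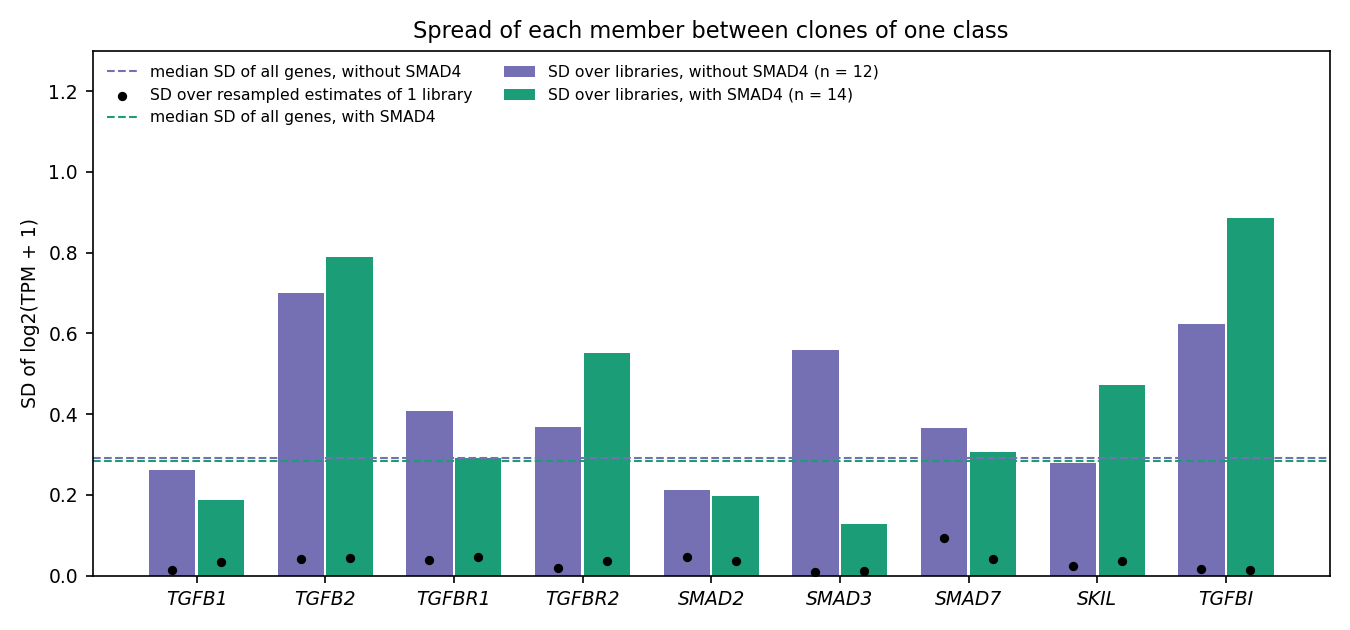
SD of log2(TPM + 1) of each member over the 12 libraries without and the 14 with SMAD4 (bars), the SD over resampled estimates within 1 library (black points) and the median SD of all genes (dashed lines). The black points were taken on log2 of the resampled counts with nothing added. TGFB2 and TGFBI stand highest, and the bars of SMAD2 and TGFB1 lie under the dashed lines in both classes.

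Members were then correlated with each other within each class, 36 pairs a class and 72 in all, as log2(TPM + 1) with 100000 permutations. With SMAD4, 3 pairs passed an adjusted p of 0.05. TGFBR2 rose with TGFB1 (Pearson r = 0.81, permutation p = 0.000560, adjusted p = 0.0317, and Spearman rho = 0.78, permutation p = 0.00171, adjusted p = 0.0616). TGFBR2 went down as TGFB2 went up (r = -0.77, permutation p = 0.00132, adjusted p = 0.0317, and rho = -0.63, permutation p = 0.0178, adjusted p = 0.151). SMAD7 rose with SMAD3 (r = 0.76, permutation p = 0.00110, adjusted p = 0.0317, and rho = 0.65, permutation p = 0.0136, adjusted p = 0.151), but not past the threshold with CPM (adjusted p = 0.106). By rank 0 of the 36 pairs passed. SMAD3 with SKIL came next without passing (r = 0.72, permutation p = 0.00359, adjusted p = 0.0646). Its rho was 0.78 (permutation p = 0.00132, adjusted p = 0.0616). Leaving out the 2 libraries farthest from the median of SMAD3, its r was 0.74 (permutation p = 0.00703, adjusted p = 0.475). With CPM its adjusted permutation p was 0.106.

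Libraries 18 and 23 bore on the 3 pairs to unlike degrees. Without both, r was 0.69 for TGFB1 with TGFBR2 (permutation p = 0.0134) and 0.64 for SMAD3 with SMAD7 (permutation p = 0.0172). The first was 0.84 without library 18 alone and 0.68 without library 23 alone. The second was 0.64 and 0.77. Libraries 18 and 23 held the highest TGFBR2 of their class, at 45.4 and 61.6 TPM, against 14.3 to 42.0 TPM in the other 12. TGFBI was at 643 and 476 TPM in them, against 77.9 to 491 TPM in the other 12, so only library 18 exceeded that range. Leaving out the 2 libraries farthest from the median of TGFB1, its r with TGFBR2 was 0.62 (permutation p = 0.0319, adjusted p = 0.475). For TGFB2 with TGFBR2 the same step, by TGFB2, left out libraries 18 and 23. It gave -0.49 (permutation p = 0.108, adjusted p = 0.528), so that relation rested in part on those libraries. For SMAD3 with SMAD7 the step, by SMAD3, gave 0.63 (permutation p = 0.0189, adjusted p = 0.475). Without SMAD4, 0 of 36 pairs passed, 8 had an unadjusted p under 0.05, and the smallest adjusted p was 0.0683. With CPM in place of TPM, 2 pairs passed there: TGFB1 with TGFBR1 (r = 0.82, permutation adjusted p = 0.0271, against r = 0.72 and adjusted p = 0.103 with TPM) and TGFBR1 with TGFBR2 (r = 0.78, permutation adjusted p = 0.0338, against r = 0.70 and adjusted p = 0.114 with TPM). The r values there of the 3 pairs that passed with SMAD4 were 0.50, 0.60 and 0.73, so TGFB2 and TGFBR2 had opposite signs in the 2 classes, a difference that was not tested.

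**Figure D4:**
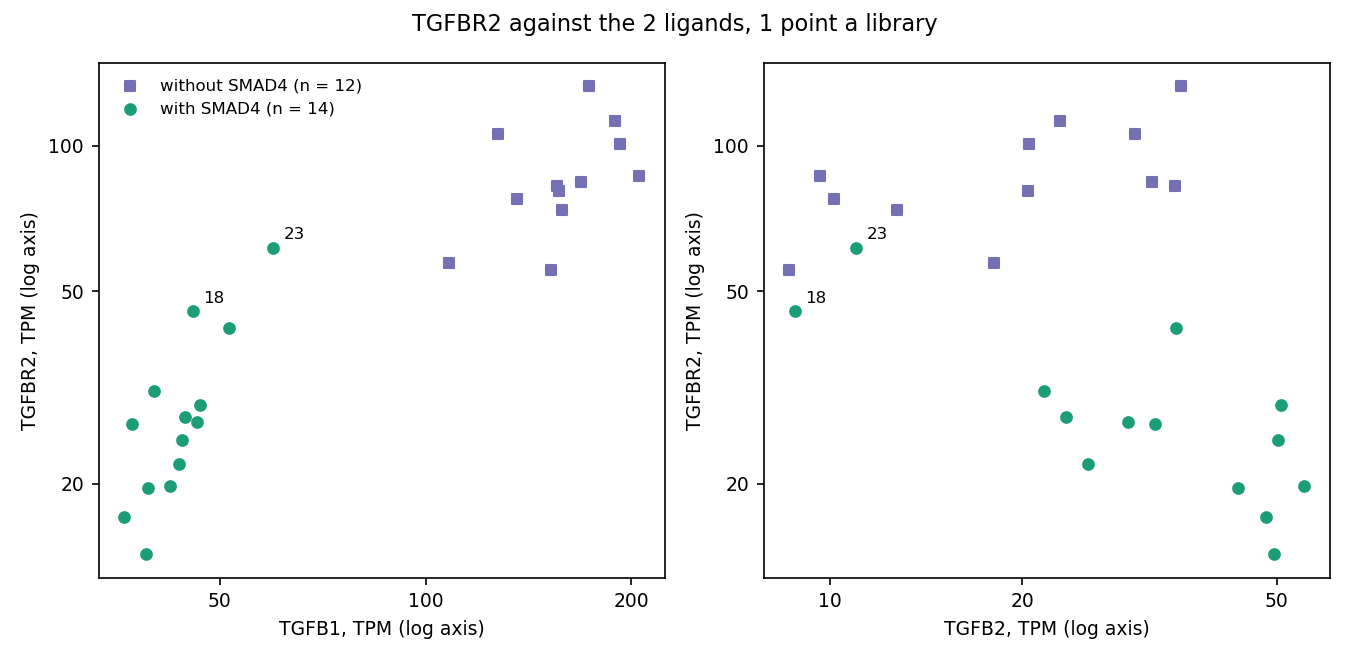
TGFBR2 against TGFB1 (left) and TGFB2 (right) in TPM on log axes, 1 point a library, with libraries 18 and 23 numbered. With SMAD4 (green circles) TGFBR2 goes up with TGFB1 and down with TGFB2, and libraries 18 and 23 hold the most TGFBR2 and the least TGFB2 of the class.

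The labelled lines were compared with edgeR's quasi-likelihood test, the only contrast that the labels give. Each label held both SMAD4 classes, BxPC3 5 libraries without SMAD4 and 7 with it, and Panc1 7 and 7. The classes did not overlap in 30.3% of genes with a mean of at least 1 TPM. A comparison of labels over all 26 libraries could therefore hardly find differences that follow the classes. Its result describes the labels and not the 2 parental lines. Over all 26 libraries, 0 of 16008 genes (0.0%) passed an adjusted p of 0.05 with a log2 fold change over 1, while 367 genes and 0 members had an unadjusted p under 0.05. The largest difference of a member was that of TGFBI, with a log2 fold change of -0.36 for Panc1 over BxPC3 (edgeR, unadjusted p = 0.253, adjusted p = 1.00). Within the libraries without SMAD4, 0 of 16124 genes (0.0%) passed and 1840 had an unadjusted p under 0.05. Within those with SMAD4, 0 of 15161 (0.0%) passed and 700 did so unadjusted. The interaction of label and class passed in 0 of 17456 genes (0.0%), with 1357 unadjusted. DESeq2 passed 2, 15 and 1 genes in the first 3 comparisons and none of the members, and limma passed 0 in each.

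SKIL was the member with an unadjusted p under 0.05 in both classes, in opposite directions. Without SMAD4 it was at 45.9 to 80.9 TPM in the 7 libraries labelled Panc1 and 66.9 to 93.0 TPM in the 5 labelled BxPC3 (log2 fold change -0.27, edgeR unadjusted p = 0.0465, adjusted p = 0.433). With SMAD4 it was at 35 to 60.6 TPM in the 7 labelled Panc1 and 21.4 to 44.3 TPM in the 7 labelled BxPC3 (log2 fold change 0.64, edgeR unadjusted p = 0.00249, adjusted p = 0.982). The interaction for SKIL was 0.92 on the log2 scale (edgeR unadjusted p = 0.000458, adjusted p = 0.452). That for SMAD2 was -0.36 (edgeR unadjusted p = 0.0180, adjusted p = 0.618). Neither passed the correction, and the label groups overlapped in both classes.

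Beyond the 9 members, 50 further genes of the pathway were described in 4 lists, of which 45 had a mean of at least 1 TPM. Of these 45, 9 were higher in every library with SMAD4, 11 were higher in every library without it and 25 overlapped. The classes therefore did not overlap in 44.4% of list genes, against 30.3% of all genes. The median log2 ratio of the class with SMAD4 over that without was -0.30 for the lists and 0.022 for all genes. The lists were chosen with earlier results of these data known, and a gene could reach the mean through a single class. Neither figure is therefore a result about the pathway. LRRC32, ACVRL1, BAMBI, LDLRAD4 and CDKN2B were under 1 TPM on average and were not counted.

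Genes that store or release the ligands gave 2 higher with SMAD4, 4 higher without it and 5 overlapping, out of 11. THBS1, which encodes the latent TGF-beta activator thrombospondin-1, was at 83.3, 185 and 1099 TPM without SMAD4 and at 0.90, 4.64 and 32.8 TPM with it. ITGB6, the beta subunit of the epithelial integrin that frees TGF-beta from its latent form, was at 12.6, 25.9 and 34.0 TPM against 0.049, 0.13 and 0.48 TPM. ITGB8, the subunit of another activating integrin, was at 3.71, 6.89 and 21.1 TPM against 0.093, 0.32 and 1.83 TPM. LTBP4, a latent TGF-beta binding protein, was at 95.6, 162 and 307 TPM against 15.4, 36.5 and 61.9 TPM. These 4 were the list's genes higher without SMAD4, as TGFB1 was, and the 2 higher with SMAD4 were LTBP2 and NRROS.

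Among receptors and their partners, 1 of 5 was higher with SMAD4 and 4 overlapped. It was ENG, endoglin, a coreceptor best known from endothelium, at 1.36, 3.13 and 10.0 TPM without SMAD4 and 12.9, 17.7 and 35.7 TPM with it. Inhibitors and SMAD regulators gave 3 higher with SMAD4, 2 higher without and 6 overlapping, out of 11. SMAD6, the inhibitory SMAD that acts mainly on the bone morphogenetic protein branch, was at 0.54, 1.47 and 4.79 TPM against 5.18, 14.3 and 21.3 TPM, the same direction as SMAD7. SMURF1, a ubiquitin ligase that works with SMAD7, was at 6.48, 7.70 and 10.0 TPM against 12, 16.6 and 20.7 TPM. The corepressor gene TGIF1 was at 38.1, 53.5 and 69.6 TPM against 82.4, 132 and 178 TPM, whereas its relative TGIF2 went the other way, at 21.3, 32.5 and 45.2 TPM against 8.26, 12 and 17.8 TPM. PMEPA1 and SKI, both also inhibitors of the pathway, overlapped.

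Targets gave 3 higher with SMAD4, 5 higher without and 10 overlapping, out of 18. The log2 ratio was above 0 in 5 of the 18, and its median was -0.84, against 0.022 for all genes. CCN2, which encodes connective tissue growth factor, was at 8.70, 25.168 and 52.7 TPM without SMAD4 and 70.2, 145 and 404 TPM with it. PTHLH, which encodes parathyroid hormone-related protein, was at 74.8, 212 and 337 TPM against 0.38, 1.92 and 4.26 TPM. NEDD9, a scaffold of focal adhesions, was at 9.70, 20.1 and 33.1 TPM against 0.058, 0.42 and 0.79 TPM. FN1, fibronectin, was at 8.39, 32.6 and 66.2 TPM against 0.79, 1.33 and 3.20 TPM. ID3 and GADD45B were the others higher with SMAD4, and JUNB and TGM2 the others higher without it. These genes answer to other pathways too. The parts of cell state and of parental line in their levels cannot be told apart from that of SMAD4.

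**Figure D5:**
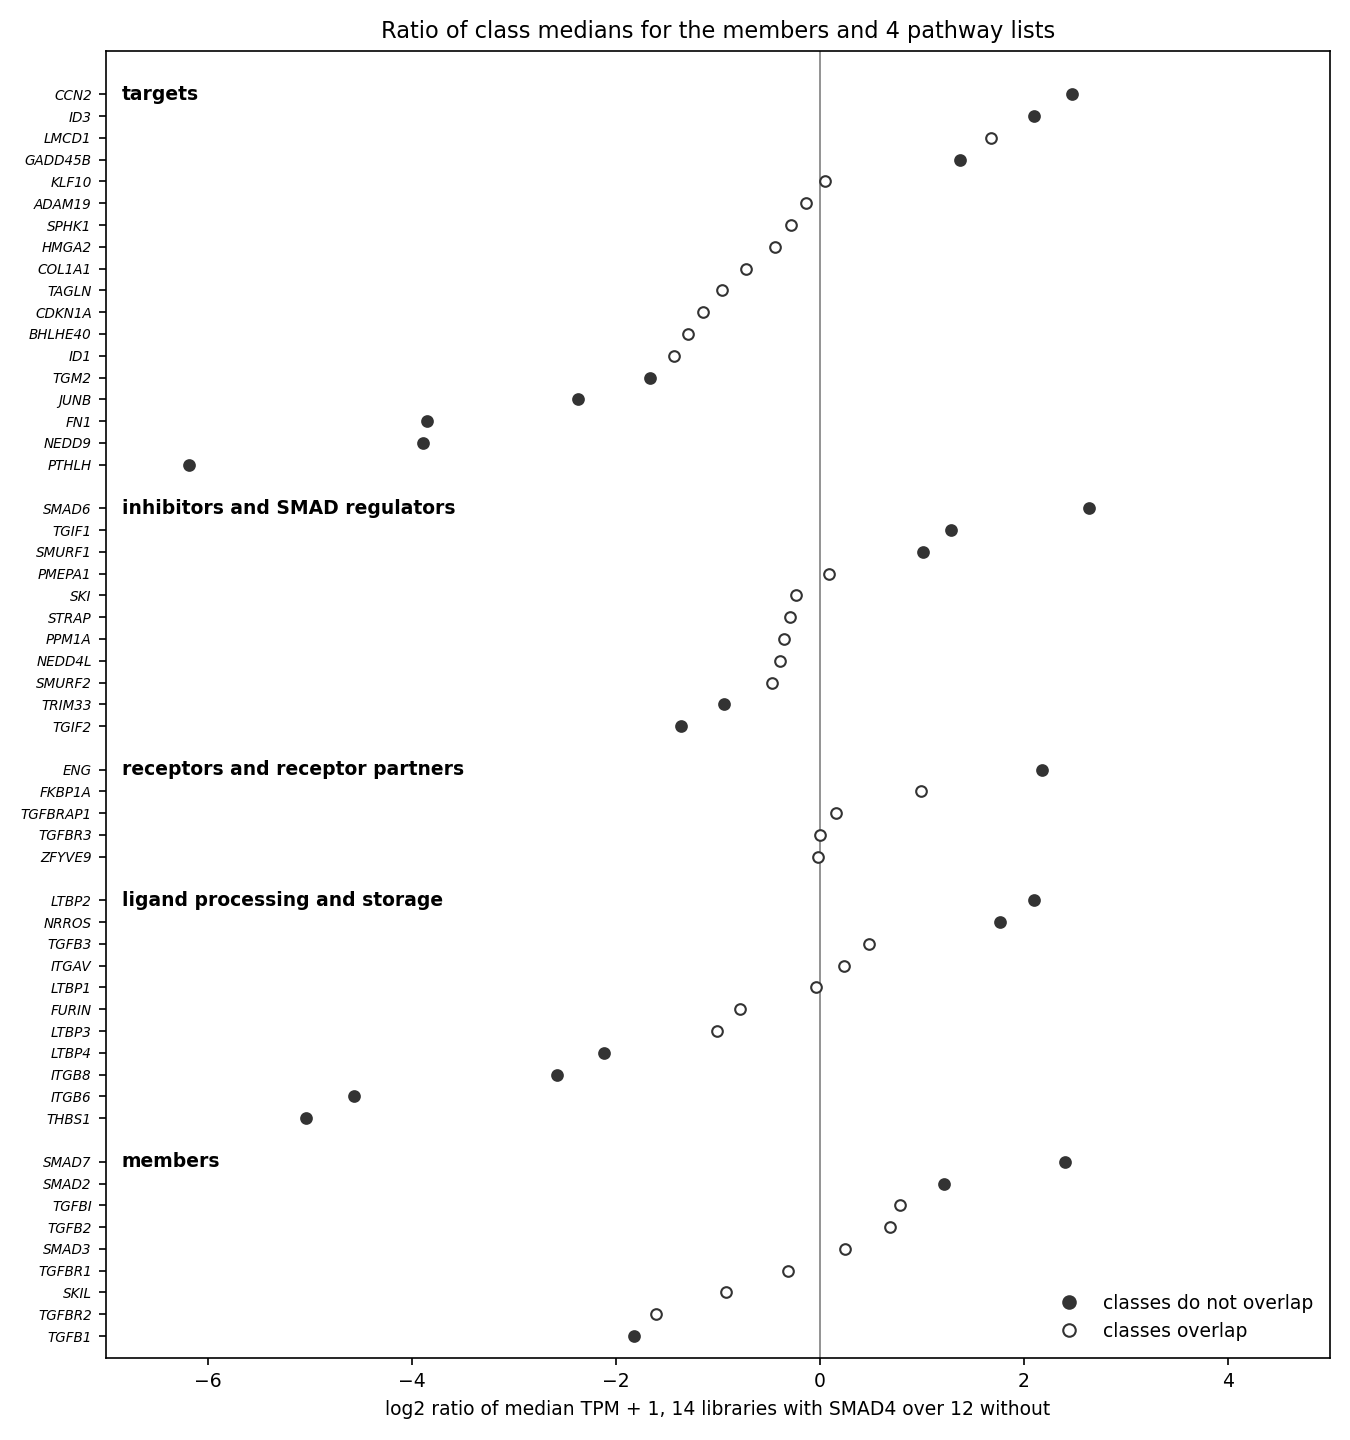
log2 ratio of median TPM + 1 (14 libraries with SMAD4 over 12 without) for the 9 members and the 45 list genes with a mean of at least 1 TPM. Filled points mark genes whose classes do not overlap, and they lie on both sides of 0 in every list but that of receptors, where ENG alone is filled.

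For the most variable member of each class, the genes most like it were ranked by Spearman's rho, as a description. Over the 12 libraries without SMAD4, TGFB2 was followed most closely by GNB1L (rho 0.93), STPG1 (rho 0.88) and P3H3 (rho 0.88), of 10587 genes with a mean of at least 5 TPM. Over the 14 libraries with SMAD4, TGFBI was followed by PXN (rho 0.87), VASP (rho 0.87) and VHL (rho 0.86), of 10281 genes. PXN and VASP encode proteins of focal adhesions and of actin assembly. These genes were picked as the highest of that many, no chance level was computed, and depth differs between the libraries.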

How the data were processed

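Polyadenylated RNA of 26 SCDCLs was sequenced by the authors with strand-specific libraries, assigned to Ensembl 103 transcripts of GRCh38 with kallisto 0.46.1 and summed to genes with tximport. The deposited table gives TPM, estimated counts and 30 resampled estimates for each library. The authors made the estimated counts from TPM scaled by mean transcript length and library total, so they follow TPM between libraries. The effective length column that the authors deposited and 4 resampled estimates of each library were also used. Strand use and filters in the assignment are not given in the sources used here.

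The 9 members, the 4 pathway lists and the tests were chosen with earlier results of these data known. Symbols were matched for 36315 of the 41078 genes, and positions came from GENCODE 44 of the same assembly. Libraries were split at 1 TPM of SMAD4. RPM was computed from the mean of the 4 resampled estimates. Classes were compared by range, median and overlap, over the genes with a mean of at least 1 TPM. Ratios were taken on log2(TPM + 1), which understates the change of low genes. Totals of 27035724 to 34945608 estimated counts set the precision. The labels were tested with edgeR 4.0.16 (R 4.3.3) on rounded counts with TMM, filterByExpr and Benjamini-Hochberg adjustment. Alternatives were DESeq2 1.42.0, limma 3.58.1, other scalings, thresholds and pseudocounts, a covariate for the SMAD4 class, and single libraries left out. Correlations used two-sided permutation tests (scipy 1.17.1, numpy 2.4.6). The steps were tested on simulated data. A withheld item of the lists is not reported here. Named from each list were at most 4 genes, those with the largest ratios among genes that did not overlap. Other genes named without a full set of values complete a count.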

Additional observations from a re-analysis of the deposited data

Results flagged for a closer look

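In 36 groups (9 members by SMAD4 class and label), the highest and the lowest library were each compared with the nearest other library of the group by Dixon's criterion, and 2 groups held a library that stood apart. Chance flags about 1 in 20 such groups. TGFB1 was at 59.9 TPM in library 23, against 36.2 to 45.6 TPM in the other 6 libraries with SMAD4 labelled BxPC3. TGFBR1 was at 38.1 TPM in library 26, against 17.9 to 22.1 TPM in the other 4 libraries without SMAD4 labelled BxPC3.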

How the results depend on the processing

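Of 270 recomputed class ratios of members, 269 moved by less than 1 SD of the libraries, 1 moved by more and 0 reversed. The exception was SMAD7, whose log2 ratio was 2.40 with TPM and 2.77 with DESeq2 size factors. The value of 2.40 was taken after 1 was added to each median TPM, and the plain medians differed 6.83-fold. With single libraries left out, there were 2 to 2 members higher in every library with SMAD4 and 1 to 2 higher in every library without it, the second member being TGFBR2 once library 23 was left out. Read counts scaled to the library total alone, an alternative chosen after seeing the data, gave the same 3 members. Between the labelled lines, edgeR called 0 genes, whereas DESeq2 called 2 over all libraries, 15 without SMAD4 and 1 with SMAD4. Pairs of members past the threshold without SMAD4 went from 0 to 2 with CPM (TGFB1 with TGFBR1, and TGFBR1 with TGFBR2). With SMAD4 they went from 3 to 0 with Spearman's rho. They also went to 0 without the 2 libraries farthest from the median of 1 gene of each pair. That gene was the one that comes first in the list of members. The cause of these changes was not tested, except that leaving libraries out also lowers the number of samples. Depth limits SMAD7 most, since its 148 to 432 estimated counts in the libraries without SMAD4 gave the largest quantification error among the members, an SD of 0.094 on the log2 scale. Another scaling moved the median log2 ratio of all genes by less than 0.1.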

Other observations

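The 2 members that were higher in every library with SMAD4 both lie near SMAD4 on chromosome 18. Between the start of SMAD2 and the end of SMAD4 (47808957 to 51085045), 13 further genes had a mean of at least 1 TPM. Of these, 8 were higher in every library with SMAD4 and 1 in every library without it, which is 61.5% higher with SMAD4 against 27.6% of 185 genes on the whole chromosome and 15.8% of all genes. The log2 ratio was above 0 for 12 of the 13, with a median of 1.25, beside 1.22 for SMAD2 and 2.40 for SMAD7. This stretch was chosen after the values of SMAD2 and SMAD7 had been seen, and gene copy number was not analysed here.

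The effective length of SMAD3 was set beside that of other genes. Without library 26 the lengths of the 2 classes did not overlap for 576 of 14763 genes (3.90%), and SMAD3 was the 1 member among them. With library 26 they did not overlap for 552 genes (3.74%) and for 0 members.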
